A study of Mus musculus with 12 samples.

Results

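The mitochondrial respiratory chain and ATP synthase were followed through their nuclear genes in 3 mouse small cell lung cancer lines with lowered or raised Nfib. The members were chosen by their symbols, as genes of the Nduf, Sdh, Uqcr, Cox and Atp5 subunit families together with Cycs and Cyc1, among features of the authors' deposited table that carry 1 gene name. The rule found 85 of 23226 such genes, out of 28112 features in all. They comprised 34 genes of complex I, 4 of complex II, 9 of complex III, 20 of complex IV, 15 of complex V and the cytochrome c gene Cycs. The remaining 2, Atp5s and Atp5sl, are named for complex V but are not subunits of it. The gene Ndufab1 has a feature of its own, but its symbol does not match the rule and it was not counted. Subunits encoded by mitochondrial DNA were not analysed here.

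Complexes I to IV pass electrons from NADH and succinate to oxygen, with ubiquinone and cytochrome c as mobile carriers, and complexes I, III and IV pump protons across the inner mitochondrial membrane as they do so. Complex V, the ATP synthase, lets the protons flow back and makes ATP. Several complex IV subunits exist as isoforms, a form found in most cells and another restricted to muscle or testis or induced when oxygen is low, and in low oxygen the transcription factor HIF-1 is known to exchange some of these subunits and to limit the entry of pyruvate into mitochondria.

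NFIB, the product of Nfib, is a DNA-binding regulator of the nuclear factor I family. The design lowers it in the lines 16T and KP1, whose labels call their Nfib level high, with an Nfib shRNA (sh2 in the titles, the same name in both lines) against a control shRNA (shLuc in the titles), and raises it in KP22, labelled Nfib low, with Nfib cDNA against an empty vector. All 3 lines come from tumors of genotype Trp53-/-;Rb1-/- and grow as floating spheres in RPMI with serum. RNA was sequenced from 2 samples in each of 6 groups, 12 samples in all. The labels call the samples duplicates without saying whether they were cultured apart. A p therefore covers no more than the spread among these samples, and each condition rests on 1 line with 1 construct.

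The authors' deposited table holds results of comparisons and no values per sample. It gives a mean normalized count over all libraries, and for each comparison a log2 fold change with its standard error (SE) and a p adjusted over all features from the authors' Wald test. Every ± below is that SE (for a difference between lines, the SE combined from both lines), and a gene is said to rise or fall, in cells with Nfib shRNA or cDNA relative to their own control, where the adjusted p was below 0.05. The headers do not state the direction of the comparisons, so it was read from Nfib: in the authors' deposited table its level was 47.2% of the control in 16T shNfib cells (log2 fold change -1.08 ± 0.035), 40.0% in KP1 shNfib cells (-1.32 ± 0.035) and 3.49-fold in KP22 cells with Nfib cDNA (1.80 ± 0.036). Nfib is therefore no separate check of the labels. The 8 neuroendocrine markers examined had mean normalized counts between 2285 and 45597, while 8 markers of other cell types lay between 0 (Scgb1a1) and 171 (Sftpc). The number of reads in each library is unknown here.

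In the authors' deposited table, 76 of the 85 members had a mean normalized count of at least 1000. Per kilobase of counted exon, the highest level was that of Atp5b, the catalytic beta subunit of ATP synthase, at 30628, followed by Atp5e, its epsilon subunit, at 22452 and Cox4i1, a complex IV subunit, at 20111. The median level per kilobase was 11881 for complex V genes, 6054 for complex III, 4390 for complex I and 3938 for complex II. Complex IV was split: its 11 widely expressed genes had a median of 11780 per kilobase, and its 8 tissue-restricted or inducible isoforms a median of 54.4. Cox8c, a testis isoform, was listed at 0 in the authors' deposited table.

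**Figure D1:**
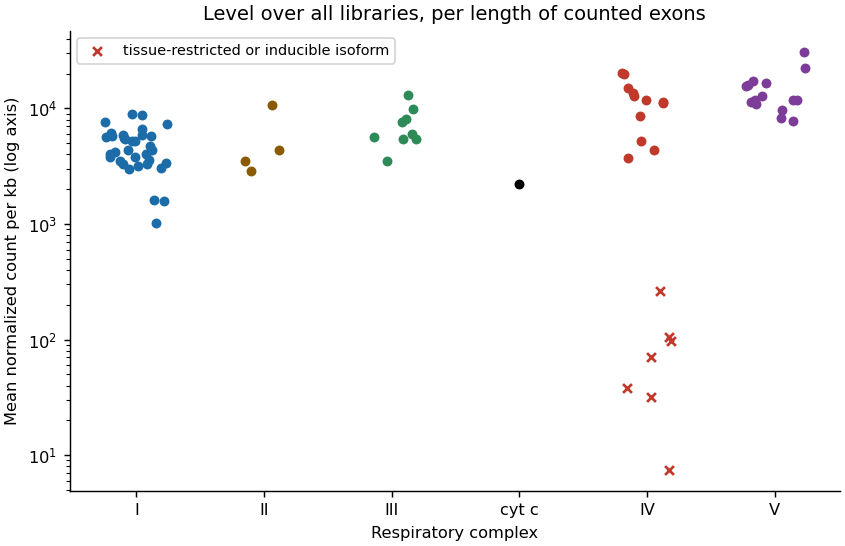
Mean normalized count per kilobase of counted exon (log axis) for the subunit genes with a mean above 0, by complex; 1 point per gene, crosses for tissue-restricted or inducible complex IV isoforms. The isoforms lie far below the other subunits, and complex V genes stand highest, around a median of 11881. The isoform median of 54.4 is over all 8, with Cox8c, at 0, not drawn.

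Promoters of 5 members are shown as examples of patterns described below. Ndufv3 and Atp5g2 rose with Nfib shRNA in both lines and fell with Nfib cDNA. That pattern held for 3.66% of members and 4.76% of all genes, so it was no more common among members. Ndufa4 and Cycs had the largest falls in 16T among subunits with a mean of at least 100. Cox7a2 had the largest opposite change between the knockdown lines. Each sequence runs 5′ to 3′ from 250 bases before to 50 bases after the gene start in RefSeq's promoter table, build GRCm38.p6. Capitals mark matches on either strand to letters bound by regulators known for respiratory genes: an NRF1 core (CGCANGCG), a GABPA site (CCGGAAG), a YY1 site (AAGATGG) and the HIF element (ACGTG or GCGTG). Matches may overlap. The regions are chr17:31519865-31520164 on the plus strand for Ndufv3, and on the minus strand chr15:102670998-102671297 for Atp5g2, chr6:11907401-11907700 for Ndufa4, chr6:50566520-50566819 for Cycs and chr9:79759804-79760103 for Cox7a2.
Ndufv3: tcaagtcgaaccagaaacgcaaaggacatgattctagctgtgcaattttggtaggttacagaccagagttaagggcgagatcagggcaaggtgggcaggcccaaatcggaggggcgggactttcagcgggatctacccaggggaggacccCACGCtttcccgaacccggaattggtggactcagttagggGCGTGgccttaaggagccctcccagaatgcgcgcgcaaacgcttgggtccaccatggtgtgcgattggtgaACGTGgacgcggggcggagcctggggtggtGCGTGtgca
Atp5g2: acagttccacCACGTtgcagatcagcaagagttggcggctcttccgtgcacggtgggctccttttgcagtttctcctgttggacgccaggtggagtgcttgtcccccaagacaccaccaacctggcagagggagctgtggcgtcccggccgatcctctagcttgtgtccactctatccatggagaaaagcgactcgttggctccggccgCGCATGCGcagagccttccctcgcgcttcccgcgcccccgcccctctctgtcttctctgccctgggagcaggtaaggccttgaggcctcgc
Ndufa4: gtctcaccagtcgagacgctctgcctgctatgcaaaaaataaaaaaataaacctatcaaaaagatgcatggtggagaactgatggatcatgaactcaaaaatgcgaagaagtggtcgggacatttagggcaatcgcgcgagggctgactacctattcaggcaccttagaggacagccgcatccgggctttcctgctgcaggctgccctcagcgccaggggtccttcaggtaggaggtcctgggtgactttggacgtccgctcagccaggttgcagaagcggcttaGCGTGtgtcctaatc
Cycs: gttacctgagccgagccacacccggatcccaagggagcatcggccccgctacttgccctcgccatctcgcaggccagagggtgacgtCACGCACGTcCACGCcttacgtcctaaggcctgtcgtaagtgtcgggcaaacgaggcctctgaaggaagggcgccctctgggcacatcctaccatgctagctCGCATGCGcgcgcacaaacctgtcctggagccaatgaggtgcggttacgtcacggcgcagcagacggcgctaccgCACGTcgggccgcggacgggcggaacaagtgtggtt
Cox7a2: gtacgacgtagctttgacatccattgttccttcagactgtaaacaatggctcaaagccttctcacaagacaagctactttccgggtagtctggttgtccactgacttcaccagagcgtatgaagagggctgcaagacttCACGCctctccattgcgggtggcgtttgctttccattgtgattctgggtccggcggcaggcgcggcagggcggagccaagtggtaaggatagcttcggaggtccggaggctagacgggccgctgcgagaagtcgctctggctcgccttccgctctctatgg
The Atp5g2 and Cycs windows hold an NRF1 core, and the other 3 windows hold matches to the HIF element only. Over the 69 members with a RefSeq promoter, an NRF1 core was found in 26 (37.7%), against 17% of 11292 promoters. A YY1 site was found in 12 (17.4%, against 7.03%), a GABPA site in 16 (23.2%, against 17.6%), and at least 1 of these 3 letter strings in 44 (63.8%, against 35.5%). The HIF element in either form was found in 66.7% of member promoters and 62.5% of all promoters. The full nuclear factor I site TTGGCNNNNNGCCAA was found in none of the 69 windows and in 0.0354% of all. Among members with a mean of at least 1000, the 26 with an NRF1 core and the 38 without had median log2 fold changes of -0.22 and -0.25 in 16T, of 0.15 and 0.13 in KP1, and of -0.10 and -0.09 in KP22. A match is a string of letters and not a measured binding site.

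Nuclear respiratory genes were mostly lower in 16T cells with Nfib shRNA. In the authors' deposited table, 47 of the 82 members tested in 16T fell (57.3%), where 25.3% of all 14504 tested genes fell, and 5 rose (6.1%, against 20%). The KP1 line gave another picture, with 31 of 82 members rising (37.8%, against 17.6% of all genes) and 9 falling (11%, against 19.6%). In KP22 cells with Nfib cDNA, 24 of 84 members fell (28.6%, against 18.8% of 17544 genes) and 2 rose (2.38%, against 19.5%). At a mean of at least 1000, 22 of 76 members fell in KP22 (28.9%). Genes at that level had near shares, 23.2% of 678 under 1000 bp of counted exon and 25.6% of 7468 longer ones. The corresponding falls in 16T were 61.8% against 39.7% and 31.6%, and rises in KP1 39.5% against 26% and 21.2%. Shares of all genes, here and below, include low-count genes (median SE in KP22 0.13, against 0.07 for members). The median log2 fold changes of the members were -0.22 in 16T, 0.12 in KP1 and -0.09 in KP22, beside medians over all tested genes of -0.05, -0.02 and 0.04. In these bulk samples, fewer cells of a kind and less RNA per cell cannot be told apart.

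Most of the changes were small. Against an absolute log2 change of 0.5, the authors' own test called 4 members in 16T (Cox6a2, Cycs, Ndufa4 and Ndufa4l2, where it called 5.25% of all genes), 1 in KP1 (Cox6a2, with 4.58% of all genes) and none in KP22 (with 7.66%). Under a t distribution with 6 degrees of freedom in place of the authors' normal reference, 40 members fell in 16T, 17 rose and 4 fell in KP1, and 11 fell and 1 rose in KP22.

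**Figure D2:**
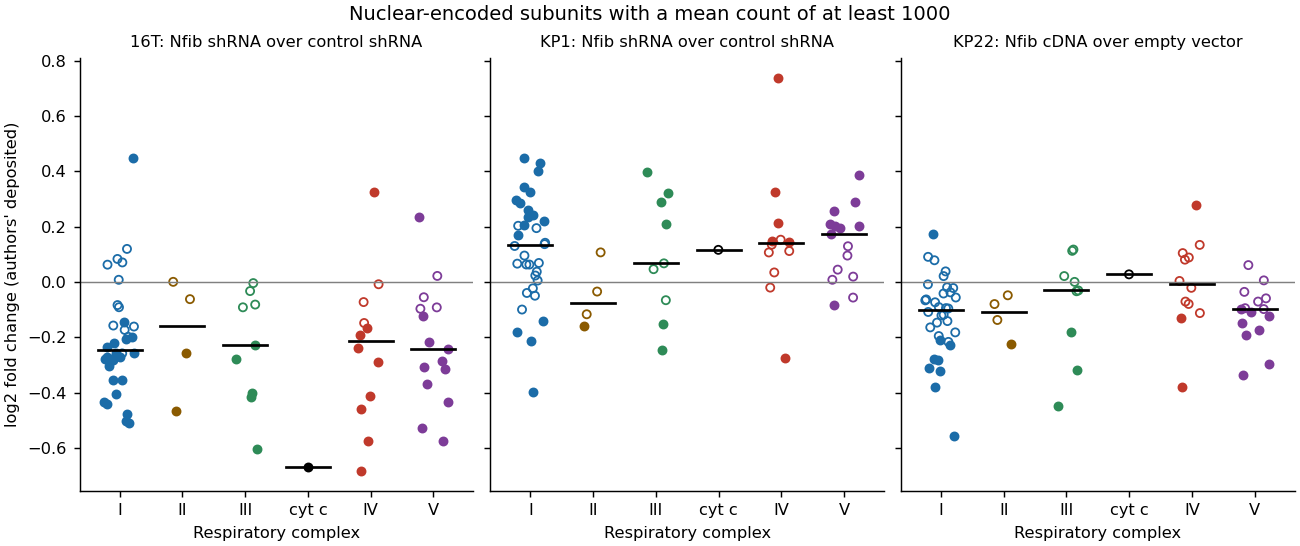
Log2 fold change of each subunit gene with a mean of at least 1000, by complex, in 16T and KP1 (Nfib shRNA over control shRNA) and KP22 (Nfib cDNA over empty vector); filled points passed the authors' adjusted p of 0.05, and black bars are medians. Most points lie below 0 in 16T for every complex, most lie above 0 in KP1 except in complex II, and in KP22 the medians of complexes I and V are near -0.10.

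Complex I takes electrons from NADH. Of its 34 genes, 21 fell (61.8%, against 25.3% of all genes) and 1 rose in 16T (median -0.25). In KP1, 13 rose (38.2%, against 17.6%) and 4 fell (11.8%, against 19.6%), with a median of 0.13. In KP22, 8 fell (23.5%, near the 18.8% of all genes) and 1 rose (median -0.10). In 16T, 5 of the 7 core genes, which carry the flavin and the iron-sulfur clusters, fell (71.4%, against 25.3% of all genes; median -0.21). Of the 27 accessory genes, 16 fell (59.3%, against 25.3%; median -0.26). In KP1 none of the core genes rose (against 17.6%) and 3 fell (42.9%, against 19.6%), Ndufs1 and Ndufv1 among them. There 13 accessory genes rose (48.1%, against 17.6%) and 1, Ndufa9, fell (3.7%, against 19.6%). With 7 core genes, their KP1 counts cannot be told from the shares of all genes. Whether the core and accessory groups differ was not tested in either line.

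Among the core genes, Ndufv1, the subunit that binds NADH, fell by 0.24 in 16T and by 0.18 in KP1 in the authors' deposited table, and had 0.09 ± 0.050 in KP22 (adjusted p = 0.16). Ndufs1, the largest iron-sulfur subunit, fell in the same lines by 0.20 and 0.14 in that deposited table.

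The accessory genes include those with the widest spread between lines. Ndufa11, a subunit of the membrane arm, fell to 70.2% of the control level in 16T and rose to 135% in KP1 (-0.51 ± 0.099 and 0.43 ± 0.099 in the authors' deposited table). Ndufb2, also of the membrane arm, had -0.48 ± 0.11 in 16T and 0.40 ± 0.11 in KP1 in the authors' deposited table. Ndufb7, a subunit on the intermembrane-space side of the membrane arm, had -0.28 ± 0.074 in 16T and 0.45 ± 0.074 in KP1, the largest rise of complex I in that line. None of the 3 was called in KP22, where their deposited values were -0.04 ± 0.099 for Ndufa11, -0.22 ± 0.11 for Ndufb2 and 0.08 ± 0.074 for Ndufb7.

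Ndufv3, a small accessory subunit of the NADH-oxidizing arm, was higher in 16T, where most complex I genes were lower. In the authors' deposited table it rose with Nfib shRNA in 16T (0.45 ± 0.076) and in KP1 (0.22 ± 0.075), and it fell with Nfib cDNA in KP22 (-0.56 ± 0.078, adjusted p = 8.9e-12), to 68.0% of the empty vector level. It was the 1 complex I gene to rise in 16T and had the largest absolute change of complex I in KP22. Ndufc1, a membrane-arm subunit, fell by 0.38 in KP22, per the authors' deposited table, with 0.20 ± 0.079 in KP1 and -0.16 ± 0.081 in 16T (adjusted p = 0.11). Ndufa10, a nucleoside kinase-like subunit, was the 1 complex I gene to rise in KP22 (0.17 ± 0.066 in the authors' deposited table) and fell by 0.28 in 16T. Ndufa9, which sits near the ubiquinone site, fell by 0.27 in 16T and by 0.21 in KP1.

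Complex II, succinate dehydrogenase, also belongs to the tricarboxylic acid cycle. None of its 4 genes rose, where 20% of all genes rose in 16T, 17.6% in KP1 and 19.5% in KP22. Falls numbered 2 in 16T (50%, against 25.3% of all genes), 1 in KP1 (25%, against 19.6%) and 1 in KP22 (25%, against 18.8%). With 4 genes these counts cannot be told from the shares of all genes. Sdhc, a membrane anchor, fell in 16T to 72.3% of the control (-0.47 ± 0.075 in the authors' deposited table) and had -0.12 ± 0.074 in KP1 and -0.14 ± 0.075 in KP22. Sdhb, the iron-sulfur subunit, fell by 0.26 in 16T in the authors' deposited table and was within 0.05 of 0 in both other lines. Sdha, the flavoprotein, stood at 0.00 ± 0.041 in 16T in the authors' deposited table, fell by 0.16 in KP1 and had -0.08 ± 0.041 in KP22. Sdhd, the other anchor, was called in KP22 only (-0.22 ± 0.051), with -0.06 ± 0.052 in 16T and 0.11 ± 0.051 in KP1 in the authors' deposited table.

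Complex III passes electrons from ubiquinol to cytochrome c. Of its 9 genes, 5 fell in 16T (55.6%, against 25.3% of all genes; median -0.23), 4 rose (44.4%, against 17.6%) and 2 fell (22.2%, against 19.6%) in KP1 (median 0.07), and 3 fell in KP22 (33.3%, against 18.8%; median -0.03). Uqcrq, a small accessory subunit, had the largest fall in 16T (-0.60 ± 0.087, 65.9% of the control) and rose in KP1 (0.32 ± 0.087), with -0.03 ± 0.088 in KP22 cells, in the authors' deposited table. Uqcr10, another small subunit, fell in 16T (-0.28 ± 0.086), rose in KP1 (0.40 ± 0.084) and fell in KP22 (-0.45 ± 0.085), so it was lower in 16T with less Nfib and in KP22 with more. Cyc1, the cytochrome c1 that hands electrons to cytochrome c, fell by 0.40 in 16T and by 0.15 in KP1 in the authors' deposited table, and had 0.12 ± 0.050 in KP22 (adjusted p = 0.056). Uqcrc1, a core protein of the matrix side, fell by 0.41 in 16T and by 0.25 in KP1 in the authors' deposited table, with 0.11 ± 0.049 in KP22 (adjusted p = 0.057).

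Cycs encodes cytochrome c, which carries electrons to complex IV and also triggers apoptosis once released. In the authors' deposited table it fell in 16T to 62.9% of the control (-0.67 ± 0.049, adjusted p = 2.5e-40), and it had 0.12 ± 0.049 in KP1 (adjusted p = 0.054) and 0.03 ± 0.049 in KP22. Only Ndufa4 fell further in 16T among all members.

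Complex IV reduces oxygen to water. Of its 11 widely expressed genes, 8 fell (72.7%, against 25.3% of all genes) and none rose in 16T (median -0.24), 5 rose (45.5%, against 17.6%) and none fell in KP1 (median 0.15), and 2 fell in KP22 (18.2%, against 18.8%; median -0.02). Ndufa4, first assigned to complex I and now known as a complex IV subunit, had the largest fall of all members in 16T (-0.68 ± 0.045, 62.2% of the control, adjusted p = 4.2e-51) in the authors' deposited table. It rose in KP1 (0.15 ± 0.043), and had 0.10 ± 0.044 in KP22 (adjusted p = 0.052). Cox7b, a small subunit, fell in 16T (-0.46 ± 0.075) and in KP22 (-0.38 ± 0.074), with 0.13 ± 0.074 in KP1, in the authors' deposited table. Cox4i1, a regulatory subunit, fell by 0.24 in 16T in the authors' deposited table, and Cox6b1, at the dimer interface, rose in KP1 (0.32 ± 0.074). Cox8a was not called in any comparison.

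The genes Cox7a2 and Cox7a2l went in opposite directions in the knockdown lines. Cox7a2, the form of subunit VIIa in most tissues, fell in 16T to 67.1% of the control (-0.58 ± 0.088) and rose in KP1 to 167% (0.74 ± 0.088), with 0.09 ± 0.088 in KP22 cells, in the authors' deposited table. Cox7a2l, a relative that joins complexes III and IV into supercomplexes, did the reverse in the authors' deposited table: it rose in 16T (0.32 ± 0.050), fell in KP1 (-0.27 ± 0.050) and rose in KP22 (0.28 ± 0.050, adjusted p = 2.0e-07). It was the 1 member higher in 16T and lower in KP1, a pattern of 2.41% of all tested genes. Cox7a1, the muscle form, had a mean normalized count of 25.8 and SEs near 0.48, and was not called.

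Cox6a2, the heart and skeletal muscle form of subunit VIa, had the largest changes of all members. In the authors' deposited table it rose in 16T (3.27 ± 0.40, adjusted p = 3.6e-15) and in KP1 (5.01 ± 0.41, adjusted p = 2.6e-32), and fell in KP22 (-1.71 ± 0.46, adjusted p = 9.9e-04). These are fitted folds of 9.65, 32.2 and 0.305. Its level stayed low beside that of its partner, with a mean of 265 per kilobase against 19750 for Cox6a1, the form of most tissues, whose log2 fold changes were -0.19 ± 0.045 in 16T, -0.02 ± 0.045 in KP1 and -0.13 ± 0.044 in KP22. Cox6a2 lies on mm10 chromosome 7 from 128205900 to 128206366, beside the integrin gene Itgad, and the interval that both genes share, from 128205062 to 128205812, gave 2.43 ± 0.43, 3.95 ± 0.44 and -1.33 ± 0.49 in the authors' deposited table. The other exons of Itgad had a mean normalized count of 1.55, against 41.0 in the shared interval. Whether strand was used in counting is not given in the sources used here, so reads of the 2 genes in that interval cannot be told apart.

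Ndufa4l2, a relative of Ndufa4 known to be induced by HIF-1, rose in 16T (2.18 ± 0.47, adjusted p = 2.3e-05), with 0.85 ± 0.50 in KP1 (adjusted p = 0.19) and -0.32 ± 0.51 in KP22. Its mean normalized count over all libraries was 26.1 in the authors' deposited table. Its rise in 16T stood beside the fall of Ndufa4 in the same line. Its difference between 16T and KP1, 1.33 ± 0.69, did not pass the test (adjusted p = 0.14). Cox4i2, another isoform known to respond to low oxygen, had a mean of 5.42 and Cox8b, a muscle form, a mean of 11.6 in the authors' deposited table, and neither was tested by the authors in 16T or KP1. The testis form Cox7b2 (mean 20.8) fell in KP22 (-1.31 ± 0.51, adjusted p = 0.031), and another testis form, Cox6b2 (mean 31.9), was not called. At such counts the deposited fold changes carry SEs of about 0.4 to 0.5.

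**Figure D3:**
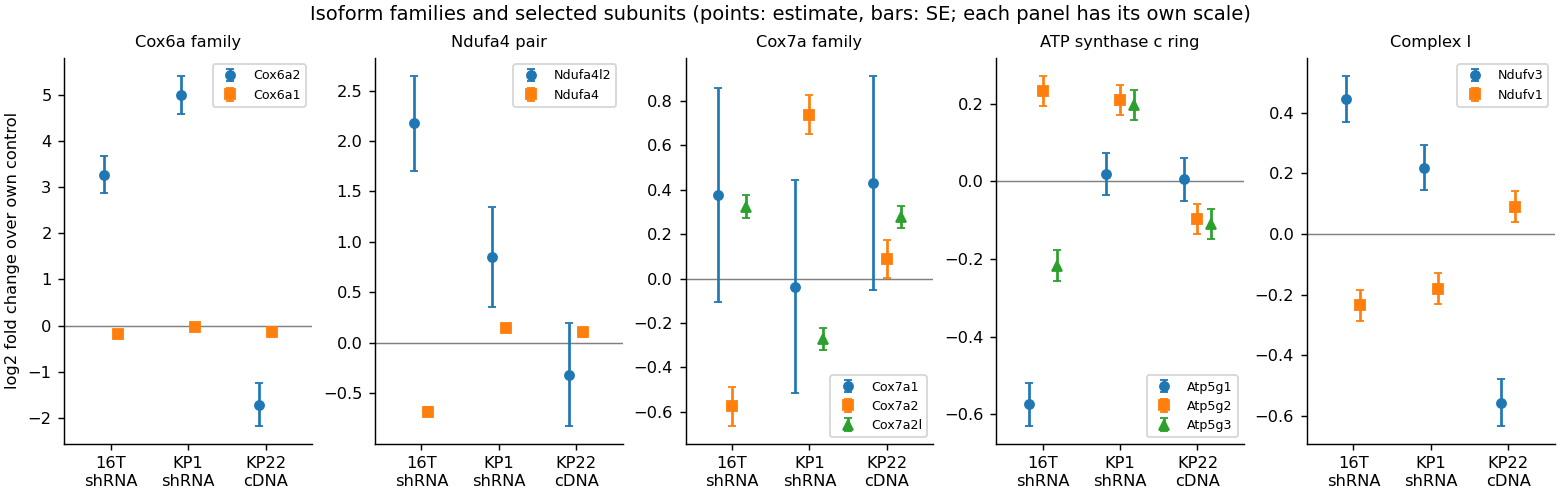
Log2 fold change with its SE in 16T and KP1 (Nfib shRNA over control shRNA) and KP22 (Nfib cDNA over empty vector) for related subunit genes, each panel on its own scale. Cox6a2 reaches 3.27 and 5.01 in the knockdown lines and -1.71 in KP22 while Cox6a1 stays near 0, and Cox7a2 and Cox7a2l mirror each other in 16T and KP1.

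Complex V, the ATP synthase, had 10 falls (66.7%, against 25.3% of all genes) and 1 rise among 15 genes in 16T (median -0.24), 8 rises (53.3%, against 17.6%) and 1 fall in KP1 (median 0.17), and 8 falls in KP22 (53.3%, against 18.8%; median -0.10). Atp5b, its catalytic subunit and the most abundant member, fell in 16T (-0.44 ± 0.039), rose in KP1 (0.20 ± 0.039) and fell in KP22 (-0.12 ± 0.039), per the authors' deposited table. Atp5a1, the alpha subunit that alternates with beta in the same head, fell by 0.12 in 16T and by 0.08 in KP1, and had -0.04 ± 0.029 in KP22. Atp5e, the epsilon subunit of the central stalk, had the largest rise of complex V in KP1 (0.39 ± 0.059) and fell by 0.24 in 16T and by 0.30 in KP22, per the authors' deposited table. Atp5l, subunit g of the membrane sector, fell in 16T (-0.53 ± 0.066) and in KP22 (-0.34 ± 0.066) and had 0.01 ± 0.065 in KP1.

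The c ring that turns in the membrane is made of identical mature proteins from 3 genes, whose calls differed. Atp5g1 fell in 16T to 67.1% of the control (-0.57 ± 0.056), with 0.02 ± 0.055 in KP1 and 0.01 ± 0.055 in KP22, per the authors' deposited table. Atp5g2 rose in 16T (0.23 ± 0.039) and in KP1 (0.21 ± 0.039) and fell in KP22 (-0.10 ± 0.039, adjusted p = 0.039). Atp5g3 fell in 16T (-0.22 ± 0.039), rose in KP1 (0.20 ± 0.039) and fell in KP22 (-0.11 ± 0.040), per the authors' deposited table. Atp5g2 and Atp5g3 were thus called in the same direction in KP1 and in KP22 and in opposite directions in 16T. Their coding parts resemble each other and many subunit genes have processed pseudogenes, so reads split or shared between copies make these values, and those of Cycs, Cox7a2, Ndufa4 and Uqcrq, uncertain. Atp5s and Atp5sl were not called in any comparison.

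The difference between the knockdown lines was tested directly, as the 16T log2 fold change minus that of KP1, over 15008 genes whose mean was 10 or more. The difference was below 0 for 47 of the 83 members tested (56.6%, against 15.5% of all genes) and above 0 for 2, Cox7a2l and Sdha (2.41%, against 14%). The widest gaps among called subunits with a mean of at least 100 were -1.31 ± 0.12 for Cox7a2, -0.94 ± 0.14 for Ndufa11, -0.92 ± 0.12 for Uqcrq and -0.88 ± 0.15 for Ndufb2, and 0.60 ± 0.071 for Cox7a2l. Under the t distribution with 6 degrees of freedom, 29 members differed in place of 49.

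In 19 members the 2 lines were called in opposite senses, lower in 16T and higher in KP1 (23.2% of 82, against 2.14% of all genes). They make up 40.4% of the members lower in 16T, near the 37.8% of all 82 members that rose in KP1. They also make up 61.3% of those higher in KP1, near the 57.3% of all 82 that fell in 16T. The overlap is thus close to what the separate shares of the 2 lines give. These 19 came from complexes I, III, IV and V: Atp5b, Atp5e, Atp5g3, Atp5j2, Atp5k, Cox5a, Cox7a2, Cox7c, Ndufa4, Ndufa5, Ndufa11, Ndufa13, Ndufb2, Ndufb4, Ndufb7, Ndufs6, Uqcr10, Uqcr11 and Uqcrq. Lower in both lines were 7 members (8.54%, against 9.89%), among them Atp5a1, Cyc1, Ndufa9, Ndufs1, Ndufv1 and Uqcrc1. Higher in both were 3, Atp5g2, Cox6a2 and Ndufv3 (3.66%, against 8.68%), and these same 3 fell with Nfib cDNA in KP22 (3.66%, against 4.76%). No member was lower in both knockdown lines and higher with Nfib cDNA, a pattern of 5.33% of all genes. There were 14 members with no call in any line (17.1%, against 28.5%), among them Cox8a, Cox6c, Uqcrh and Uqcrfs1.

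The mean knockdown effect and the KP22 effect were also added, since effects of equal size and opposite sign sum to 0. That mean is taken over 16T and KP1, so opposite changes in these lines cancel in it. Nfib itself changed by unequal amounts (-1.08, -1.32 and 1.80), so effects of opposite sign need not sum to 0. Atp5g2, Cox6a2 and Ndufv3, called in opposite directions with shRNA and cDNA, had sums that differed from 0. The sum differed from 0 in 35 of 83 members, below 0 in 32 (38.6%, against 19% of all genes), the 4 genes of complex II among them, and above 0 in 3, Atp5g2, Cox6a2 and Cox7a2l (3.61%, against 17.7%). In 11 members, Atp5b, Atp5l, Cox7b and Uqcr10 among them, the level was lower both in 16T with Nfib shRNA and in KP22 with Nfib cDNA (13.4% of 82, against 3.14% of all genes). Under the t distribution the sum differed from 0 in 17 members.

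**Figure D4:**
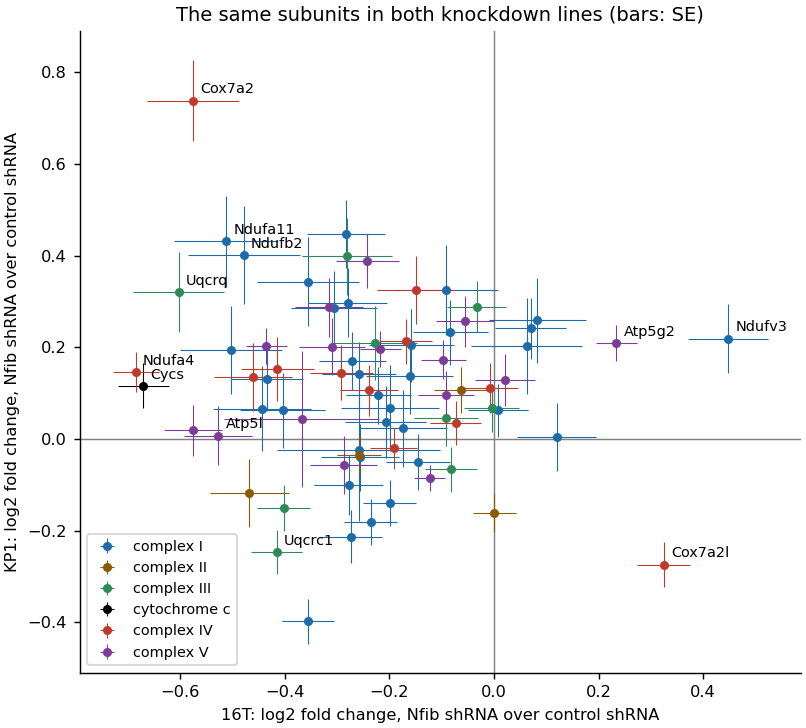
Log2 fold change with its SE in KP1 (vertical) against 16T (horizontal), both Nfib shRNA over control shRNA, for the subunit genes with a mean of at least 1000, coloured by complex. Most points lie in the upper left, lower in 16T and higher in KP1, with Ndufv3 and Atp5g2 at the upper right, Cox7a2l at the lower right, and Uqcrc1 at the lower left.

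The KP1 values were lower for longer genes. The 9 members that fell in KP1 had between 1149 and 2859 bp of counted exon (median 1608), and the 31 that rose had a median of 499. Over the 76 members with a mean of at least 1000, Spearman's rho between the KP1 log2 fold change and exon length was -0.62, against 0.02 for 16T and 0.29 for KP22, and over 8146 genes at that level it was -0.06 in KP1. These are descriptions across genes, which share libraries and are not independent replicates. Among the 52 such members under 1000 bp, 27 rose in KP1 (51.9%, against 26% of 678 genes that short) and none fell (against 10.5%), and among the 24 longer members 3 rose (12.5%, against 21.2% of 7468) and 9 fell (37.5%, against 26%). Within complex I the core genes have a median of 1606 bp and the accessory genes 560. The part of length in their KP1 counts was not tested. Among accessory genes over 1000 bp, Ndufa11 and Ndufv3 rose in KP1, Ndufa9 fell and Ndufa10 was not called.

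In 16T, 1 of the short members rose (1.92%, against 13.7% of short genes) and 2 of the longer ones (8.33%, against 25.4%). Falls there were common at either length, with 33 of 52 short members (63.5%, against 39.7% of short genes) and 14 of 24 longer ones (58.3%, against 31.6%). In KP22, 16 of the short members fell (30.8%, against 23.2%) and none rose (against 16.1%), while 6 of the longer ones fell (25%, against 25.6%) and 2 rose (8.33%, against 31.2%). When each effect was measured from the median of all genes of its length class, 38 members fell in 16T, 27 rose and 7 fell in KP1, and 31 fell in KP22, and the member median in 16T was -0.14 in place of -0.22. The deposited table's name mentions cqn, a normalization for GC content and length, and its part in these effects was not tested.

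**Figure D5:**
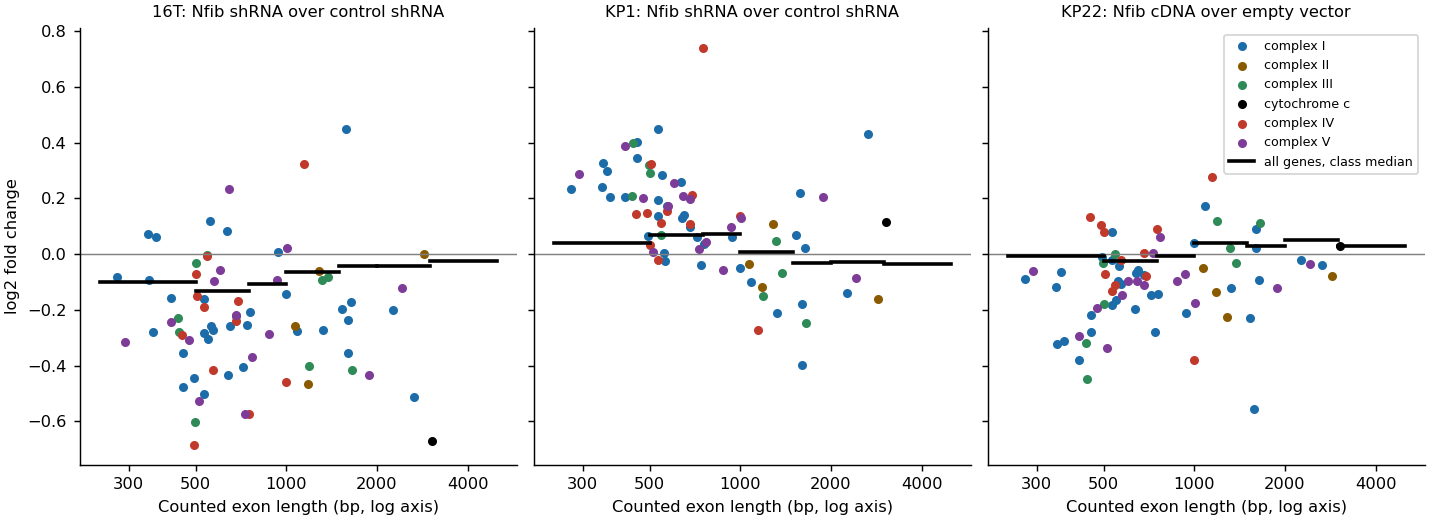
Log2 fold change of the subunit genes with a mean of at least 1000 against counted exon length (bp, log axis) in the 3 comparisons, with the median of all genes in each length class as a black bar. KP1 values are lower for longer members, and the 9 that fell are all longer than 1000 bp; no such slope is seen in 16T.

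Across genes, Pearson's r between the 16T and KP1 log2 fold changes was -0.13 over the 76 members and 0.49 over the 8146 genes at that level of counts, given as a description. The comparisons share no samples, and the SEs of a member in 16T and KP1 had ratios between 0.971 and 1.03.

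Other genes of mitochondrial respiration were read from lists chosen for their role. Of 44 assembly factors, 20 fell (45.5%, against 25.3% of all genes) and 2 rose (4.55%, against 20%) in 16T, with a median of -0.25. In KP1, 6 fell (13.6%, against 19.6%) and 4 rose (9.09%, against 17.6%), and in KP22, 8 rose (18.2%, against 19.5%) and 5 fell (11.4%, against 18.8%), so none of these 4 shares exceeded that of all genes (medians -0.06 and 0.09). The farthest in the authors' deposited table were Sdhaf1, which serves complex II (-0.81 ± 0.12), and Nubpl, which serves complex I (0.65 ± 0.18), in 16T, and Ecsit (-0.45 ± 0.096) and Ndufaf3 (0.57 ± 0.11) in KP1. In KP22 they were Uqcc1, for complex III (-0.57 ± 0.078), and Ndufaf4, for complex I (0.59 ± 0.086). Of 18 regulators of mitochondrial biogenesis, 8 fell (44.4%, against 25.3%) and 2 rose (11.1%, against 20%) in 16T, 4 fell (22.2%, near the 19.6% of all genes) and none rose in KP1, and 7 rose (38.9%, against 19.5%) and 1 fell (5.56%, against 18.8%) in KP22. The coactivator Pprc1 rose in KP22 (0.58 ± 0.049) and Esrra, a nuclear receptor, fell there (-0.36 ± 0.12), while Slirp, which stabilizes mitochondrial mRNA, had the largest fall of that list in 16T (-0.39 ± 0.12), Polg2, of the mitochondrial DNA polymerase, its largest rise there (0.55 ± 0.20), and Polrmt, the mitochondrial RNA polymerase, the largest fall in KP1 (-0.32 ± 0.058) in the authors' deposited table.

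The tricarboxylic acid cycle, which feeds the chain, had 11 of 18 genes lower (61.1%, against 25.3% of all genes) and none higher in 16T, 8 lower (44.4%, against 19.6%) and none higher in KP1, and 4 higher (22.2%, near the 19.5% of all genes) and 2 lower (11.1%, against 18.8%) in KP22. Idh3a, of NAD-dependent isocitrate dehydrogenase, fell by 0.67 in 16T in the authors' deposited table. Suclg2, of GTP-forming succinyl-CoA synthetase, fell by 0.49 in KP1 and rose in KP22 (0.71 ± 0.095), and Ogdh, of oxoglutarate dehydrogenase, fell by 0.23 in KP22. No cycle gene rose in KP1, and whether the cycle and subunit lists differ was not tested. Of 14 mitochondrial carriers and channels, 5 fell (35.7%, against 25.3%) and 3 rose (21.4%, near 20%) in 16T, 8 rose (57.1%, against 17.6%) and 3 fell (21.4%, near 19.6%) in KP1, and 8 fell (57.1%, against 18.8%) and 2 rose (14.3%, against 19.5%) in KP22. Slc25a13, an aspartate-glutamate carrier, rose in KP1 (1.58 ± 0.11) and its relative Slc25a12 fell in KP22 (-0.54 ± 0.059), per the authors' deposited table. Slc25a1, the citrate carrier, fell by 0.42 in KP1 and rose in KP22 (0.76 ± 0.068), and in 16T the outer-membrane channel Vdac1 rose (0.52 ± 0.040) and the carnitine carrier Slc25a20 fell (-0.65 ± 0.13).

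Genes that HIF-1 is known to use in remodelling mitochondria were mostly higher in 16T. Of 10, 8 rose (80%, against 20% of all genes) and 1 fell (10%, against 25.3%) in 16T, with a median of 0.52. In KP1, 1 rose (10%, against 17.6%) and 4 fell (40%, against 19.6%), and in KP22, 2 rose (20%, near the 19.5% of all genes) and 5 fell (50%, against 18.8%), with medians of -0.09 and -0.17. Bnip3, a mitophagy receptor, rose 6.54-fold in 16T (2.71 ± 0.058) and fell by 0.15 in KP1 and by 0.61 in KP22, per the authors' deposited table. Pdk1, which holds back pyruvate oxidation, rose 4.45-fold in 16T (2.15 ± 0.067) and fell by 0.29 in KP1 and also by 0.29 in KP22. Iscu, an iron-sulfur scaffold, was the 1 gene of the list to fall in 16T (-0.30 ± 0.088) and the 1 to rise in KP1 (0.21 ± 0.088). Lonp1, a matrix protease, was the largest rise in KP22 (0.18 ± 0.043), per the authors' deposited table. The part of these genes in the subunit changes was not tested.

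Reads in exons that overlap another gene or another transcript are counted under joined names, 19 of which hold a member. In 16T the joined feature of Atp5g1 had -0.66 ± 0.17, that of Ndufs8 -0.60 ± 0.20 and that of Ndufs6 -0.38 ± 0.14 in the authors' deposited table, and these genes fell there too. Other joined features departed from their gene in 16T. For Atp5c1 the joined feature, with a mean of 111, had -1.90 ± 0.50. The gene itself, whose mean was 9652, had 0.02 ± 0.057. Ndufa7 had -0.27 ± 0.10 for a joined feature with a mean of 1632 and 0.06 ± 0.11 for the gene itself. The feature shared by Ndufa13 and Tssk6 had 0.00 ± 0.18, where Ndufa13 fell by 0.27. The joined feature of Ndufa4l2 and Shmt2, with a mean of 2947, had -0.11 ± 0.063 in 16T and 0.51 ± 0.063 in KP22. Ndufs5, a complex I accessory gene, occurs only in such a feature, shared with BC002163, with -0.54 ± 0.16 in 16T, 0.10 ± 0.16 in KP1 and -0.04 ± 0.17 in KP22, per the authors' deposited table. These examples were chosen after their values were seen.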

How the data were processed

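Total RNA (Qiagen RNeasy) was made into Illumina TruSeq v2 libraries, per the labels' protocols. The submitters' processing notes name the build mm10 and the tools TopHat, bedtools, DESeq2 and DESeq, with versions not given in the sources used here. Per the file headers, the deposited table gives for each feature the signal over all libraries as a mean normalized count, a log2 fold change and its SE, a Wald score, p-values with adjusted p-values, and the same for a test against 0.5. A deposited list of exon intervals gave lengths and positions from their start and end. The table's name mentions cqn normalization. SEs do not grow further at the lowest counts, as in shrunken estimates, so folds of low genes such as Cox6a2 are fitted values. The library depths are unknown, so the authors' SEs alone give the precision.

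The design had foreseen values per sample; since the table gives results alone, the deposited adjusted p below 0.05 was used. Differences and sums of effects combined the SEs as independent errors and were referred to a normal distribution, Benjamini-Hochberg adjusted over 15008 genes. The calculation was run on simulated data with normal errors of the size of the deposited SEs. Such a run cannot show whether SEs from 2 samples per group are accurate. Named are, per comparison, the 5 largest rises and falls past the threshold with a mean of at least 100, the largest change per complex, isoform families, Cycs, Cyc1, Sdha to Sdhd, the 5 widest differences between 16T and KP1 in each direction, and the largest rise and fall of each other list; 1 member so named is not reported here. The members, lists and tests were chosen with earlier results of these data known. Python 3.11.15, pandas 2.3.3, scipy 1.17.1 and matplotlib 3.10.9 were used. Alternatives changed the filter on the mean, the size of change, the reference distribution, the centring and the features counted.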

Additional observations from a re-analysis of the deposited data

Results flagged for a closer look

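The log2 fold change with Nfib shRNA differed between 16T and KP1 for 24 of the 38 named members, by the test of the difference itself (16T minus KP1, adjusted p below 0.05). Named members were chosen in part by the size of this difference, so their share does not describe the members as a whole. Of all 83 members tested, 56.6% had a difference below 0 and 2.41% above 0. Over all genes the shares were 15.5% and 14%. In complex I the difference was -0.94 for Ndufa11, -0.88 for Ndufb2, -0.73 for Ndufb7 and -0.36 for Ndufc1. In complex II it was 0.16 for Sdha, -0.22 for Sdhb and -0.35 for Sdhc. In complex III it was -0.92 for Uqcrq, -0.68 for Uqcr10, -0.25 for Cyc1 and -0.17 for Uqcrc1, and for Cycs it was -0.79. Among widely expressed complex IV genes it was -1.31 for Cox7a2, -0.83 for Ndufa4, -0.60 for Cox7b, -0.47 for Cox6b1, -0.35 for Cox4i1 and -0.17 for Cox6a1. For the muscle isoform Cox6a2, which rose in both lines, it was -1.74, and for the supercomplex gene Cox7a2l it was 0.60. In complex V it was -0.63 for Atp5e, -0.59 for Atp5g1, -0.53 for Atp5l and -0.41 for Atp5g3. The cause of these differences was not tested.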

How the results depend on the processing

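Counts of called members depended most on the size asked of a change. With a change of at least 0.5, 2 members rose and 8 fell in 16T, 2 rose and 0 fell in KP1, 0 rose and 3 fell in KP22, 24 differed between 16T and KP1 and 3 between knockdown and cDNA. With the authors' test against 0.5, 2 rose and 2 fell in 16T, 1 rose and 0 fell in KP1, and 0 rose and 0 fell in KP22. With 6 degrees of freedom in a t distribution, 17 rose and 4 fell in KP1, 1 rose and 11 fell in KP22, 29 differed between the knockdown lines and 17 between knockdown and cDNA. The 5 rises in 16T were 3 at a mean of at least 100, 3 at a mean of at least 1000, 3 without tissue-restricted isoforms and genes that are no subunits, and 8 when centred on the length class, where the 16T median was -0.14; the last 2 alternatives were chosen after seeing the data. The 2 rises in KP22 were 1 when centred on the median gene or on the length class. The cause was not tested for these. The other 54 of 81 values kept their side or lay within 1.5 times. Of 62 calls on named members, 1 was lost on centring on the median gene, 4 on the length class, 12 under the t distribution and 57 in the test against 0.5, and none reversed. No paired analysis was possible because the deposited table holds no values per sample; leaving out each replicate was not run for the same reason.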
